A study of Rattus norvegicus with 18 samples.

Results

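The MAP kinase dual-specificity phosphatases described here are Dusp1, Dusp2, Dusp4, Dusp5, Dusp6, Dusp7, Dusp8, Dusp10, Dusp14 and Dusp16, chosen by gene symbol from the family and not by their values. Earlier results of these data were known when they were chosen. All 10 were found in both cell types, among 16704 symbols shared by the astrocyte and the microglia tables. RNA was sequenced from primary wild-type Sprague-Dawley rat astrocytes and microglia, prepared from the cortex of neonatal pups, after 24 h without peptide (control) or with fibrils of Aβ42 or Aβ40, the longer and the shorter main form of the amyloid-β peptide. There were 3 libraries in each of 6 groups, 18 in all, and every culture, the controls included, was kept in serum-free medium during the treatment. The microglia were the cells shaken off mixed glial cultures and the astrocytes were the layer that remained attached, each fibril was used at a single concentration, and the labels do not say whether replicates came from separate cultures, so the p-values measure the spread between these libraries, which may be technical.

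Dual-specificity phosphatases remove phosphate from both the threonine and the tyrosine of the activation loop of MAP kinases, which switches the kinase off. The family divides by location and target. Dusp1, Dusp2, Dusp4 and Dusp5 are nuclear enzymes whose genes are induced by the kinases they silence, Dusp6 and Dusp7 are cytoplasmic and act on the kinase ERK, Dusp8, Dusp10 and Dusp16 prefer the stress kinases JNK and p38, and Dusp14 is a small atypical member without the kinase-binding domain of the others. In glia and macrophages some of these enzymes, such as Dusp1, are known as brakes on the kinase cascades that drive cytokine production, which need not hold for every member.

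Promoters of RefSeq genes on the build GRCr8 were matched to 9 of the 10 genes, and Dusp4 had no entry. The 300 bases around the annotated start (250 before it and 50 after it) were searched on both strands for TGACGT, the core of the site bound by the CREB and ATF factors, for TGANTCA, a site of the AP-1 factors, for the CArG box of serum response factor and for an NF-kB site. Dusp1 held 3 matches to TGACGT, at -172, -124 and -122 from the start, of which the latter pair overlap and lie on opposite strands. Dusp5 held 2 CArG boxes, at -82 and -72, and TGACGT at -56. Of 3 annotated promoters of Dusp14, 1 held TGANTCA at -89, and none of these letters was found in the windows of Dusp2, Dusp6, Dusp7, Dusp8, Dusp10 or Dusp16. Of 33469 rat promoters of this length, 7.94% held TGACGT, 7.33% TGANTCA, 1.64% a CArG box and 7.51% an NF-kB site. The windows of Dusp1 and Dusp5 are shown because they hold these letters, and those of Dusp2 and Dusp6 because these genes had the largest responses, the former in microglia and the latter in astrocytes. Capitals mark the matched letters, and a match describes the sequence only.
Dusp1 (chr10:17184603-17184902, plus strand): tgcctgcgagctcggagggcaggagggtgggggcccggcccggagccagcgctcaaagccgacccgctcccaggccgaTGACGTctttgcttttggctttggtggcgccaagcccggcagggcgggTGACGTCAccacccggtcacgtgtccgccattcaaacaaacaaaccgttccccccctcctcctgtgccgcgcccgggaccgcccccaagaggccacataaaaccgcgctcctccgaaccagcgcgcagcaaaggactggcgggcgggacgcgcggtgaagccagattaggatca
Dusp5 (chr1:262543524-262543823, plus strand): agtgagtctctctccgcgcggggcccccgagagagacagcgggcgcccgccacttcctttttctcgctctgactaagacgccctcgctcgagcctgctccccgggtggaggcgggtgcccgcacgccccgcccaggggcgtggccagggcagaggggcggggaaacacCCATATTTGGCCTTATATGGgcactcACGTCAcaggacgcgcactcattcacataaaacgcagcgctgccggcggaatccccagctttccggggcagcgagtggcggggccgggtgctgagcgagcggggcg
Dusp2 (chr3:135009386-135009685, plus strand): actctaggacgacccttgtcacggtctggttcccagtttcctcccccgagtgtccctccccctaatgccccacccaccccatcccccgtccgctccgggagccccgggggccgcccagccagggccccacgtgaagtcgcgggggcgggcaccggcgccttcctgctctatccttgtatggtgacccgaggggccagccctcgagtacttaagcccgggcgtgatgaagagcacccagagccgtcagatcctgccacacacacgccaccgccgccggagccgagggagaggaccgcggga
Dusp6 (chr7:35979354-35979653, plus strand): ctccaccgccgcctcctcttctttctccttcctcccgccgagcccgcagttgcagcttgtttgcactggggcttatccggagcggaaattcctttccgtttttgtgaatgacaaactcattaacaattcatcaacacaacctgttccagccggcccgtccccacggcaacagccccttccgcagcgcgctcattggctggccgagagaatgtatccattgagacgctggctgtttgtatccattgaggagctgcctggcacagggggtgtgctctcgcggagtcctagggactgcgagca

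The libraries held 3674043 to 19013919 counts on genes in astrocytes and 2271834 to 22274367 in microglia. Levels are given as scaled CPM, the count of a gene relative to the library's total (as CPM) after scaling by the trimmed mean of M values over the 18 libraries, in which 1 count is worth 0.0479 to 0.493 scaled CPM. Astrocyte control replicate 2 and microglia Aβ42 replicate 1 stood apart from the other libraries of their groups, with chi-square values per degree of freedom of 28.5 and 44.6, and of 23.1 and 22.6, against 10.8 and 7.68 for the remaining pair of each group, and results that rest on them are given also without them. The cultures carried their labelled markers: the summed level of 8 astrocyte markers in microglia control was 210 to 238 scaled CPM against 7677 to 9361 in astrocyte control. In treated astrocytes that sum was lower, at 5028 to 5406 with Aβ42 and 5543 to 5999 with Aβ40. The summed level of 10 microglial markers in astrocytes was 365 to 452 in control, 55.9 to 77.8 with Aβ42 and 33.6 to 44.2 with Aβ40, against 9219 to 10650 in microglia control, with none of the 10 at 0. Those markers were at 2859 to 4022 in microglia with Aβ42 and 3611 to 4201 with Aβ40. Oligodendrocyte lineage markers (8 genes) went from 1578 to 2358 in astrocyte control to 1192 to 1273 with fibrils, and from 2115 to 2360 in microglia control to 2320 to 3133. In microglia, fibroblast markers went from 64.4 to 81.8 in control to 131.5 to 182 with fibrils, neuron markers from 214.5 to 225.8 to 307.7 to 358.8, and endothelial markers, with Cldn5 at 0 in every library, from 175.8 to 187.8 to 38.7 to 109.9. The part of these other cells in the phosphatase levels was not tested, and in bulk RNA fewer cells of a type and less RNA per cell cannot be told apart.

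In astrocytes both fibrils raised the cytoplasmic ERK phosphatases Dusp6 and Dusp7, together with Dusp1, Dusp10 and Dusp16, and Aβ42 also raised Dusp4 and Dusp5. In microglia both fibrils raised the nuclear members Dusp1, Dusp4 and Dusp5 and every JNK and p38 member (Dusp8, Dusp10 and Dusp16). Dusp6, Dusp7 and Dusp14 did not pass the test there. Dusp2, the remaining nuclear member, was also higher. It passed the filter on low counts through the treated libraries alone, so its rise is given as a description. No member was called lower with either fibril in either cell type. The difference between the cell types was itself past the test for Dusp6 and Dusp7, whose response was larger in astrocytes, and for Dusp1 and Dusp5, whose response was larger in microglia, with both fibrils.

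The test was edgeR's quasi-likelihood test over all genes that passed the filter on low counts, with Benjamini-Hochberg adjusted p under 0.05 as the threshold. With Aβ42, 7 of the 9 members tested in astrocytes were higher and 0 lower than in control, where 16.5% of all tested genes were higher and 20.4% lower. With Aβ40, 5 of 9 were higher and 0 lower, where 14.9% of all genes were higher and 18.4% lower. Dusp2, at 1 to 8 counts in the 9 astrocyte libraries, did not pass the filter there, and in microglia it passed through the treated libraries alone, so that its place in the microglial counts below is no support for them. In microglia with Aβ42, 7 of 10 were higher and 0 lower, beside 27.1% of all genes higher and 26.6% lower. With Aβ40, 7 of 10 were again higher and 0 lower, beside 19.6% higher and 21.4% lower. At an unadjusted p under 0.05, 1 member (Dusp6 with Aβ42 in microglia) was lower, and 0 members were lower in the other 3 comparisons. The median log2 fold change of the tested members was 1.18 and 0.78 in astrocytes with Aβ42 and Aβ40, and 1.504 and 1.38 in microglia, where the median of all tested genes lay between -0.0047 and 0.0096. Both fibrils were compared with the same control libraries of their cell type, so the 2 comparisons are not independent of each other.

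**Figure D1:**
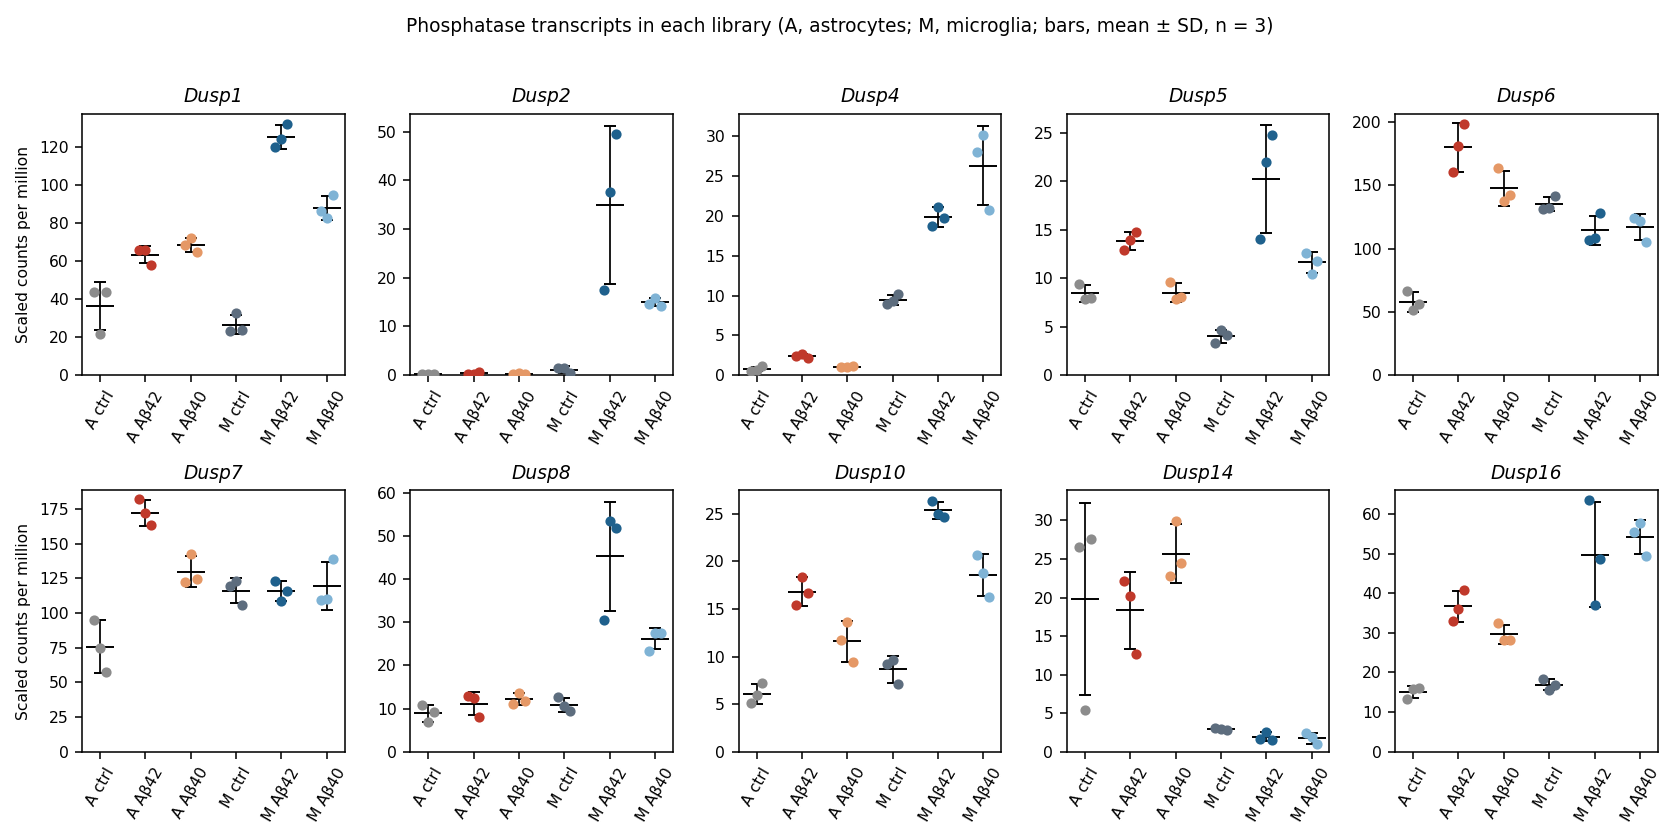
Scaled CPM (y axis, from 0, a separate scale for each gene) of the 10 phosphatase genes in each library of astrocytes (A) and microglia (M) without fibrils or with Aβ42 or Aβ40 fibrils; points are libraries and the black bars are mean ± SD, n = 3. Dusp6 and Dusp7 rise with fibrils in astrocytes and stay near the control level in microglia, while Dusp2 leaves the bottom of its axis in fibril-treated microglia alone.

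Dusp6, the cytoplasmic phosphatase that acts on ERK and is itself a transcript induced by ERK signalling, was at 66.3, 51.2 and 56.2 scaled CPM in the 3 astrocyte control libraries, at 160, 181 and 199 with Aβ42 and at 164, 138 and 143 with Aβ40. In microglia it was at 131, 133 and 142 in control, at 107, 108 and 128 with Aβ42 and at 124, 122 and 105 with Aβ40. Every fibril-treated astrocyte library was thus above every control library by a wide margin, whereas the treated microglia libraries all lay slightly below their controls. In astrocytes the log2 fold change was 1.61 (SE 0.14, adjusted p = 4.89e-06) with Aβ42 and 1.34 (SE 0.14, adjusted p = 2.22e-05) with Aβ40. In microglia it was -0.25 (SE 0.11, adjusted p = 0.0603) and -0.20 (SE 0.11, adjusted p = 0.158), neither past the threshold. Leaving out microglia Aβ42 replicate 1 or replicate 3 took the Aβ42 value past it, at -0.24 (adjusted p = 0.0277) and -0.33 (adjusted p = 0.0405). The microglia minus astrocyte difference of the responses was -1.88 (SE 0.18, adjusted p = 1.59e-07) for Aβ42 and -1.56 (SE 0.18, adjusted p = 2.03e-06) for Aβ40, and it kept its direction and its call under all 24 alternatives tried for each fibril.

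Dusp7, the second cytoplasmic ERK phosphatase, followed the same order of groups at its ends. It was at 95.1, 74.6 and 57.2 scaled CPM in astrocyte control, at 182, 172 and 163 with Aβ42 and at 123, 143 and 124 with Aβ40. In microglia control it was at 120, 123 and 106, and the treated libraries ranged from 109 to 139, so that the 3 microglial groups overlapped. The log2 fold change in astrocytes was 1.18 (SE 0.17, adjusted p = 2.91e-04) with Aβ42 and 0.78 (SE 0.17, adjusted p = 0.00494) with Aβ40, and in microglia -0.02 (SE 0.12) and 0.03 (SE 0.12). The difference between the cell types was -1.21 (SE 0.21, adjusted p = 2.03e-04) for Aβ42 and -0.76 (SE 0.22, adjusted p = 0.0106) for Aβ40. In control cultures both cytoplasmic members were higher in microglia than in astrocytes, Dusp6 by 1.23 (SE 0.13, adjusted p = 7.44e-08) and Dusp7 by 0.63 (SE 0.15, adjusted p = 0.00122) on the log2 scale, and with Aβ42 the mean level of each was higher in astrocytes (180 against 114 scaled CPM for Dusp6, 172 against 116 for Dusp7).

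Dusp1, the nuclear phosphatase of p38, JNK and ERK that limits cytokine transcripts in macrophages, was the member of the nuclear class that both fibrils raised in both cell types. In astrocytes it was at 43.9, 21.7 and 43.8 scaled CPM in control, with replicate 2 as the low library, at 66.2, 66.2 and 58.2 with Aβ42 and at 68.3, 72.4 and 64.9 with Aβ40. In microglia it was at 23.4, 32.6 and 23.8 in control, at 120, 124 and 132 with Aβ42 and at 86.2, 82.6 and 95.1 with Aβ40. The treated libraries did not overlap with the controls in either cell type, nor did the 2 fibrils overlap with each other in microglia. The log2 fold change was 0.77 (SE 0.23, adjusted p = 0.0208) with Aβ42 and 0.88 (SE 0.23, adjusted p = 0.0112) with Aβ40 in astrocytes, and 2.24 (SE 0.13, adjusted p = 5.23e-08) and 1.73 (SE 0.14, adjusted p = 7.75e-07) in microglia. Without astrocyte control replicate 2 the astrocyte values were 0.52 (adjusted p = 0.00263) and 0.63 (adjusted p = 7.00e-04), and the Aβ42 value did not pass the test without Aβ42 replicate 1 (0.74, adjusted p = 0.0588) or replicate 2 (0.74, adjusted p = 0.0643).

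Dusp2, a nuclear phosphatase of ERK and p38 known mainly from immune cells, showed the largest log2 fold change of the 10 members in microglia. It was at 1.53, 1.47 and 0.329 scaled CPM in microglia control (12, 7 and 2 counts), at 17.4, 37.7 and 49.6 with Aβ42 and at 14.7, 15.8 and 14.3 with Aβ40. Every treated library was above every control library, and Aβ42 replicate 1 was below the other 2 Aβ42 libraries and close to the Aβ40 group. The log2 fold change was 5.01 (SE 0.42) with Aβ42 and 3.72 (SE 0.48) with Aβ40. These values are a description, since Dusp2 passed the filter through the treated libraries alone. In astrocytes its level was 0.219 to 0.676 scaled CPM over the 9 libraries, at or near the value of a few counts, and no fold change is given there.

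Dusp4 and Dusp5 complete the nuclear class, the former acting on ERK and JNK and the latter on ERK alone. Dusp4 was at 8.94, 9.25 and 10.2 scaled CPM in microglia control, at 18.7, 21.2 and 19.8 with Aβ42 and at 28.0, 30.2 and 20.7 with Aβ40. In astrocytes it was at 0.510, 0.657 and 1.08 in control (2, 3 and 17 counts), at 2.45, 2.61 and 2.14 with Aβ42 and at 0.972, 1.02 and 1.16 with Aβ40. Aβ42 thus lifted Dusp4 above all other astrocyte libraries, while the Aβ40 libraries overlapped with control. The log2 fold change in astrocytes was 1.42 (SE 0.30, adjusted p = 0.00317) with Aβ42 and 0.25 (SE 0.32, adjusted p = 0.704) with Aβ40, and in microglia 1.07 (SE 0.16, adjusted p = 1.28e-04) and 1.504 (SE 0.17, adjusted p = 1.37e-05). The astrocyte values of Dusp4 depended on astrocyte control replicate 3, without which they were 2.002 (adjusted p = 0.00329) and 0.83 (adjusted p = 0.282). Dusp5 was at 9.44, 7.88 and 7.99 scaled CPM in astrocyte control, at 12.9, 13.9 and 14.8 with Aβ42 and at 9.62, 7.89 and 8.05 with Aβ40. In microglia Dusp5 was at 3.32, 4.63 and 4.11 in control, at 14.04, 22.0 and 24.8 with Aβ42 and at 12.6, 10.5 and 11.8 with Aβ40. It rose in astrocytes with Aβ42 (0.70, SE 0.15, adjusted p = 0.00423) and gave 0.0026 with Aβ40 (SE 0.16, adjusted p = 0.994). In microglia it rose by 2.41 (SE 0.21, adjusted p = 1.74e-06) with Aβ42 and 1.55 (SE 0.25, adjusted p = 3.43e-04) with Aβ40 on the log2 scale.

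**Figure D2:**
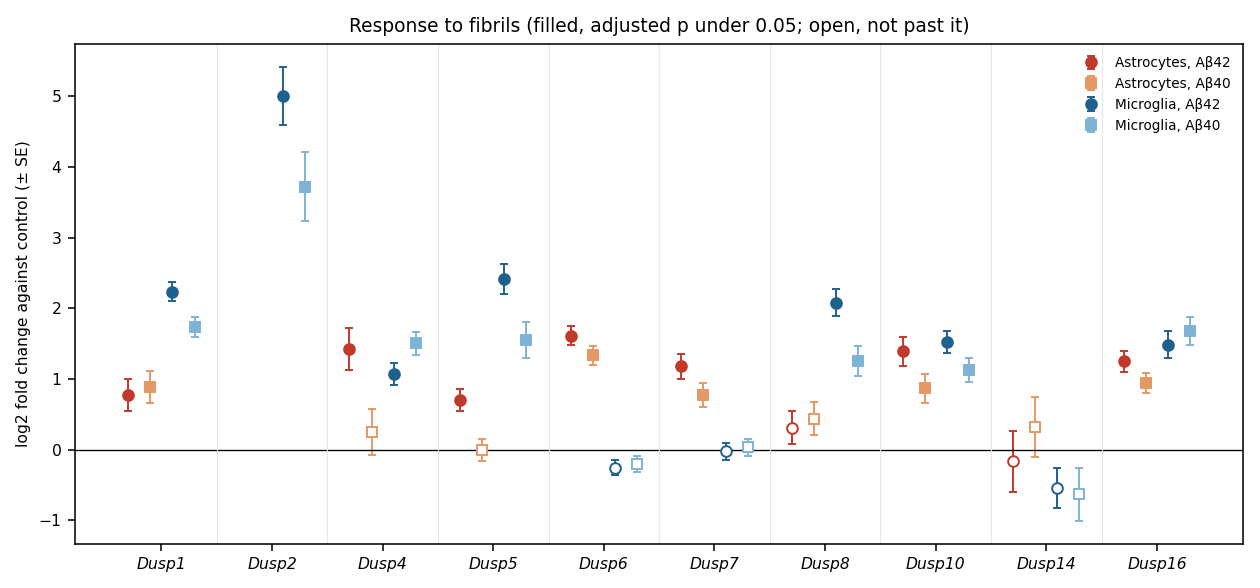
Log2 fold change against the control of the same cell type (y axis, ± SE) for each phosphatase gene with Aβ42 (circles) and Aβ40 (squares) in astrocytes (red and orange) and microglia (dark and light blue); filled symbols passed the adjusted p of 0.05. Dusp2 in microglia, drawn as a description, lies at 5.01 and 3.72, and Dusp6 lies at 1.61 and 1.34 in astrocytes and just below 0 in microglia.

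Among the JNK and p38 phosphatases, Dusp10 and Dusp16 rose in both cell types with both fibrils and Dusp8 rose in microglia. Dusp8 was at 12.6, 10.5 and 9.37 scaled CPM in microglia control, at 30.6, 53.4 and 51.9 with Aβ42 and at 23.3, 27.5 and 27.6 with Aβ40, and over the 9 astrocyte libraries it ranged from 6.78 to 13.7. Its log2 fold change in microglia was 2.08 (SE 0.20, adjusted p = 2.81e-06) with Aβ42 and 1.25 (SE 0.21, adjusted p = 5.20e-04) with Aβ40, and in astrocytes it was 0.31 (SE 0.23, adjusted p = 0.326) and 0.44 (SE 0.23, adjusted p = 0.170). The treated microglia libraries were all above the highest astrocyte library. Dusp10, which restrains JNK and p38 in innate immune cells, was at 5.10, 5.91 and 7.17 scaled CPM in astrocyte control, at 15.4, 18.4 and 16.7 with Aβ42 and at 11.8, 13.6 and 9.39 with Aβ40. In microglia Dusp10 was at 9.19, 9.68 and 7.07 in control, at 26.4, 25.0 and 24.7 with Aβ42 and at 20.7, 18.8 and 16.3 with Aβ40. The treated libraries of each cell type did not overlap with its controls. Its log2 fold change was 1.39 (SE 0.20, adjusted p = 2.59e-04) and 0.87 (SE 0.20, adjusted p = 0.00643) in astrocytes and 1.52 (SE 0.16, adjusted p = 5.52e-06) and 1.12 (SE 0.17, adjusted p = 2.08e-04) in microglia, with Aβ42 and Aβ40 respectively.

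Dusp16, which binds and inactivates JNK, was at 13.3, 15.8 and 16.0 scaled CPM in astrocyte control, at 33.1, 36.1 and 40.9 with Aβ42 and at 32.4, 28.1 and 28.3 with Aβ40. In microglia it was at 18.4, 15.6 and 16.8 in control, at 63.4, 37.0 and 48.6 with Aβ42 and at 55.5, 57.7 and 49.3 with Aβ40. Its control levels overlapped between the cell types and all treated libraries lay above them. The log2 fold change was 1.25 (SE 0.14, adjusted p = 5.18e-05) with Aβ42 and 0.94 (SE 0.14, adjusted p = 4.29e-04) with Aβ40 in astrocytes, and 1.48 (SE 0.19, adjusted p = 3.95e-05) and 1.68 (SE 0.20, adjusted p = 2.19e-05) in microglia. Microglia Aβ42 replicate 1 was the high library of its group for Dusp7, Dusp10 and Dusp16 and the low library for Dusp1, Dusp2, Dusp4, Dusp5, Dusp6 and Dusp8.

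Dusp14, the atypical member, stood apart from the family in that it passed the test with neither fibril in either cell type. It was at 26.5, 5.47 and 27.6 scaled CPM in astrocyte control (104, 25 and 435 counts), with replicate 2 far below the others, at 22.1, 20.2 and 12.7 with Aβ42 and at 22.7, 30.0 and 24.4 with Aβ40. In microglia it was at 2.79 to 3.06 in control, at 1.52 to 2.59 with Aβ42 and at 0.986 to 2.36 with Aβ40, with 2 to 54 counts over the 9 libraries. Every treated microglia library thus lay below every control, at few counts. The log2 fold change was -0.16 (SE 0.43) and 0.32 (SE 0.42) in astrocytes and -0.54 (SE 0.29) and -0.63 (SE 0.38) in microglia. The astrocyte values changed with the library left out. Without control replicate 2 they were -0.57 (adjusted p = 0.0371) with Aβ42 and -0.09 (adjusted p = 0.762) with Aβ40, and without control replicate 3 they were 0.22 (adjusted p = 0.752) and 0.71 (adjusted p = 0.290). The Aβ42 value was also above 0 without control replicate 1 or Aβ42 replicate 3. In microglia the Aβ42 value was -0.93 (adjusted p = 0.0462) without Aβ42 replicate 2.

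The control cultures were then compared between the cell types in a fit of all 18 libraries. Besides Dusp2, 4 of 9 members were higher in microglia and 3 lower, where 34.2% of all tested genes were higher and 34.5% lower. Dusp4 was higher by 3.40 (SE 0.25, adjusted p = 3.76e-10) on the log2 scale and Dusp6 and Dusp7 by the values above, while Dusp14 was lower by 2.79 (log2 difference -2.79, SE 0.43, adjusted p = 1.26e-05) and Dusp5 by 1.08 (log2 difference -1.08, SE 0.22, adjusted p = 2.74e-04). These 5 differences passed the test without any single library. The other 2 calls did not hold in this way. Dusp1 (-0.48, SE 0.20, adjusted p = 0.0399) was not past the threshold without astrocyte control replicate 1 or 3, astrocyte Aβ42 replicate 2, or microglia control replicate 1 or 3, at -0.30 to -0.47. Without astrocyte control replicate 2, which stood apart, Dusp1 was at -0.73 (adjusted p = 8.67e-05). Dusp2 entered this fit through the fibril-treated microglia, where it is high, so it is given by its counts alone, 1, 1 and 5 in astrocyte control and 12, 7 and 2 in microglia control. Dusp10 (0.45, SE 0.20, adjusted p = 0.0494) lost its call without any of 14 libraries, at 0.30 to 0.46, and kept it only without replicate 3 of astrocyte control, astrocyte Aβ40, microglia control or microglia Aβ40. Dusp8 (0.29, SE 0.24) and Dusp16 (0.16, SE 0.18) did not pass.

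The order of the mean levels over the 6 groups differed between members. For Dusp1 it ran from microglia control (26.6 ± 5.21, SD, n = 3) through astrocyte control (36.4 ± 12.8), astrocyte Aβ42 (63.5 ± 4.58), astrocyte Aβ40 (68.5 ± 3.801) and microglia Aβ40 (88.0 ± 6.46) to microglia Aβ42 (126 ± 6.13), where the 2 treated astrocyte groups overlapped, as did the 2 controls, the latter through astrocyte control replicate 2 alone. For Dusp6 it ran from astrocyte control (57.9 ± 7.69) through microglia Aβ42 (114 ± 11.6), microglia Aβ40 (117.2 ± 10.2), microglia control (135 ± 5.60) and astrocyte Aβ40 (148 ± 13.8) to astrocyte Aβ42 (180 ± 19.1), where the treated microglia overlapped with each other and astrocyte Aβ40 with both of its neighbours. Within the nuclear class, Dusp5 had its lowest mean in microglia control and overlapped between astrocyte Aβ42 and microglia Aβ42, the highest. Dusp4 set all 3 microglial groups above all 3 astrocyte groups, and Dusp14 set all 3 astrocyte groups above all 3 microglial groups. The range of the group means of log2 CPM, computed with a prior count of 2, was widest for Dusp2 (6.10), Dusp4 (4.82) and Dusp14 (3.78) and narrowest for Dusp7 (1.21). The value for Dusp2 depends on that prior count, since its astrocyte libraries hold 1 to 8 counts, and it is no fold change.

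The responses of the cell types were compared by their difference, microglia minus astrocyte. Besides Dusp2, for Aβ42 3 of 9 members had a higher value (Dusp1, Dusp5 and Dusp8) and 2 a lower one (Dusp6 and Dusp7), where 19.3% of all genes were higher and 17.9% lower. For Aβ40, 4 of 9 were higher (Dusp1, Dusp4, Dusp5 and Dusp16) and 2 lower (Dusp6 and Dusp7), where 16% were higher and 16.5% lower. The difference for Dusp5 was 1.69 (SE 0.28, adjusted p = 9.72e-05) with Aβ42 and 1.53 (SE 0.30, adjusted p = 5.79e-04) with Aβ40, and for Dusp8 it was 1.76 (SE 0.32, adjusted p = 2.63e-04) with Aβ42 and 0.80 (SE 0.33, adjusted p = 0.0706) with Aβ40. The Aβ40 difference of Dusp8 passed edgeR's test without astrocyte control replicate 2 (0.91, adjusted p = 0.0339) or microglia Aβ42 replicate 1 (0.79, adjusted p = 0.0334). It also passed with the size factors or the Wald test of DESeq2. For Dusp1 the difference was 1.46 (SE 0.27, adjusted p = 3.05e-04) with Aβ42. The value of Dusp1 with Aβ40 (0.83, SE 0.27, adjusted p = 0.0246) fell short of the threshold without astrocyte control replicate 1 or 3, astrocyte Aβ40 replicate 3, microglia control replicate 1 or 3, or microglia Aβ40 replicate 3, at 0.65 to 0.79. Without astrocyte control replicate 2 the value was 1.085 (adjusted p = 9.19e-05). That of Dusp16 with Aβ40 (0.72, SE 0.24, adjusted p = 0.0295) fell short without astrocyte control replicate 3, astrocyte Aβ40 replicate 2 or 3, microglia control replicate 2 or 3, or microglia Aβ40 replicate 1 or 2, at 0.66 to 0.71.

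Dusp2 and Dusp4 rest on few astrocyte counts in that comparison. Dusp2 passed the filter of the joint fit only through the microglia, where it is high, so its fitted differences (4.56 with Aβ42 and 3.59 with Aβ40) are a description and no test of them is given. The difference for Dusp4 with Aβ40 was 1.24 (SE 0.36, adjusted p = 0.0124), and 0.67 (adjusted p = 0.482) without astrocyte control replicate 3. Dusp10 gave 0.13 (SE 0.26) and 0.24 (SE 0.26) with Aβ42 and Aβ40, and Dusp14 gave -0.37 (SE 0.62) and -0.97 (SE 0.76), none of which passed the test. With Aβ42, Dusp4 (-0.35, SE 0.32) and Dusp16 (0.24, SE 0.24) did not pass either. The directions of Dusp5, Dusp6 and Dusp7 and their calls held without any single library for both fibrils.

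**Figure D3:**
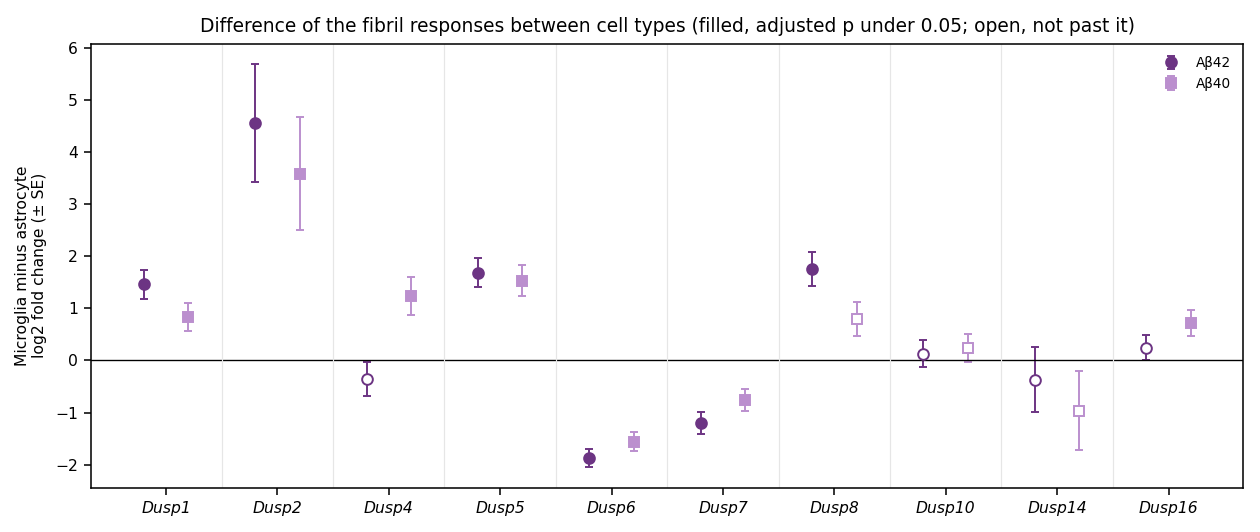
Microglia minus astrocyte log2 fold change (y axis, ± SE) for each phosphatase gene with Aβ42 (circles) and Aβ40 (squares); filled symbols passed the adjusted p of 0.05. Dusp6 and Dusp7 lie below 0 with both fibrils and Dusp1 and Dusp5 above it; Dusp2, with the widest error bars, rests on 1 to 8 counts in the astrocyte libraries and is drawn as a description.

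The 2 fibrils were also compared directly. In microglia 4 members were higher with Aβ42 than with Aβ40 (Dusp1, Dusp2, Dusp5 and Dusp8) and 0 lower, where 11.3% of all genes were higher and 9.01% lower. Dusp2 passed the filter through the fibril-treated libraries alone, so its place in this count and in those below is no support. The log2 difference was 0.50 (SE 0.13, adjusted p = 0.0260) for Dusp1, 1.28 (SE 0.30) for Dusp2, 0.86 (SE 0.20, adjusted p = 0.0220) for Dusp5 and 0.83 (SE 0.19, adjusted p = 0.0210) for Dusp8. In each of these 4 genes every Aβ42 library was above every Aβ40 library. This also held for Dusp10, which did not pass the test, and the share over all genes was not counted. The other 6 members did not pass, from Dusp10 (0.40, SE 0.15, adjusted p = 0.0780) to Dusp4 (-0.44, SE 0.15, adjusted p = 0.0589), with Dusp6, Dusp7 and Dusp14 between -0.06 and 0.09 and Dusp16 at -0.20 (SE 0.18). Without microglia Aβ42 replicate 1, the library that stood apart, the values were 0.52, 1.49, 0.98 and 0.98, and 7 members passed the test where 53.8% of all genes did. Those added were Dusp10 (0.36, adjusted p = 0.0426) as higher and Dusp4 (-0.44, adjusted p = 0.0155) and Dusp16 (-0.40, adjusted p = 0.0137) as lower with Aβ42. Without Aβ42 replicate 2 or 3, or without any Aβ40 library, 0 members passed, and 0.905% to 1.37% of all genes did. The 4 values then lay at 0.45 to 0.56, 0.97 to 1.32, 0.71 to 0.93 and 0.71 to 0.87. Microglia Aβ42 replicates 2 and 3 held 22274367 and 17687416 counts, against 2271834 to 4425805 in replicate 1 and the Aβ40 libraries, and the part of depth in this comparison was not tested.

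In astrocytes 0 of 9 members differed between the fibrils by edgeR's test, where 0.0599% of all genes were higher and 0.0257% lower with Aβ42. At an unadjusted p under 0.05, 5 members were higher with Aβ42, and 737 of 11690 genes differed. Dusp4 (1.18, SE 0.25, adjusted p = 0.140) and Dusp5 (0.70, SE 0.14, adjusted p = 0.129) had the largest values. For both the Aβ42 libraries lay above all Aβ40 libraries. This also held for Dusp7, Dusp10 and Dusp16, so it is not particular to Dusp4 and Dusp5, and the share over all genes was not counted. Dusp6 did so too with scaling over the astrocyte libraries alone, but not over the 18 libraries. Dusp14 went the other way, with every Aβ42 library below every Aβ40 library. Besides Dusp4 and Dusp5, the other 7 tested members ranged from Dusp10 (0.52, SE 0.18) to Dusp14 (-0.49, SE 0.41). Without astrocyte control replicate 2 Dusp4 and Dusp5 passed, at 1.18 (adjusted p = 0.0311) and 0.71 (adjusted p = 0.0190), and the Wald test of DESeq2 called Dusp5 alone.

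**Figure D4:**
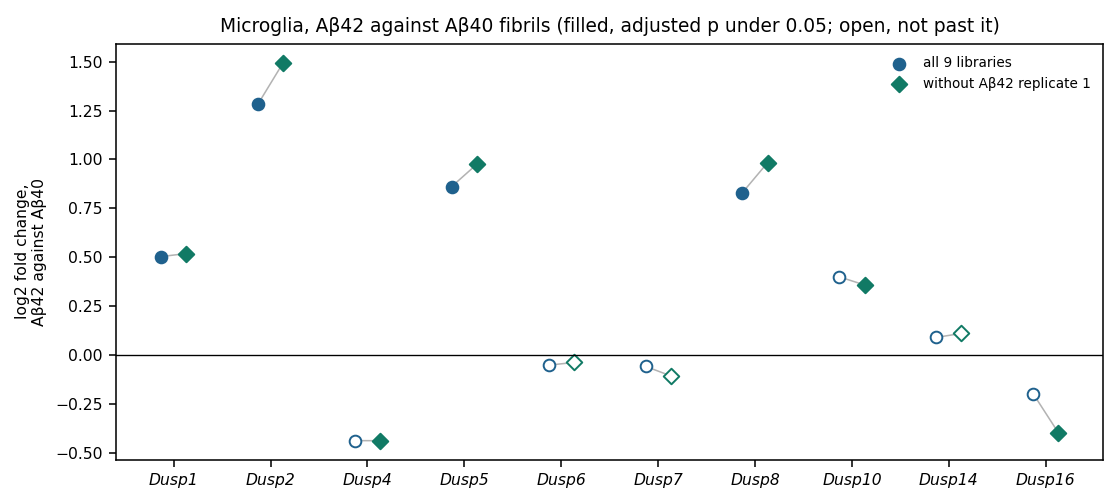
Log2 fold change of Aβ42 against Aβ40 in microglia (y axis) for each phosphatase gene with all 9 microglia libraries in the fit (circles) and without Aβ42 replicate 1 (diamonds); filled symbols passed the adjusted p of 0.05. Dusp8 goes from 0.83 to 0.98 and Dusp16 from -0.20 to -0.40, and the number of filled symbols, Dusp2 counted, goes from 4 to 7.

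The makeup of the phosphatase counts in microglia turned from mostly cytoplasmic members toward the nuclear and the JNK and p38 members. Of the counts on the 10 genes, those on Dusp6 and Dusp7 were 74.7% to 76.9% in the microglia control libraries, 40.2% to 44.1% with Aβ42 and 48.6% to 50.9% with Aβ40. In astrocytes they were 50.04% to 66.2% in control, 67.4% to 70.1% with Aβ42 and 62.6% to 64.6% with Aβ40, so that Aβ42 lay above the control range and Aβ40 within it. The upper end of that range was control replicate 2, which stood apart. The remaining control libraries, at 59.5% and 50.04%, lay below every Aβ40 library too. The nuclear members made up 11.2% to 14.02% in microglia control, 32.6% to 37.97% with Aβ42 and 29.2% to 29.7% with Aβ40. The JNK and p38 members went from 10.3% to 12.1% in microglia control to 21.0% to 23.05% with Aβ42 and 19.4% to 21.8% with Aβ40. The treated microglia libraries therefore did not overlap with their controls for any of these 3 classes. These shares are of counts, to which longer transcripts contribute more, and were not tested. The summed level of the 10 genes rose in both cell types, from 229 ± 40.5 scaled CPM (SD, n = 3) to 516 ± 7.75 with Aβ42 and 435 ± 17.6 with Aβ40 in astrocytes, and from 332 ± 10.1 to 553 ± 38.6 and 478 ± 2.17 in microglia.

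**Figure D5:**
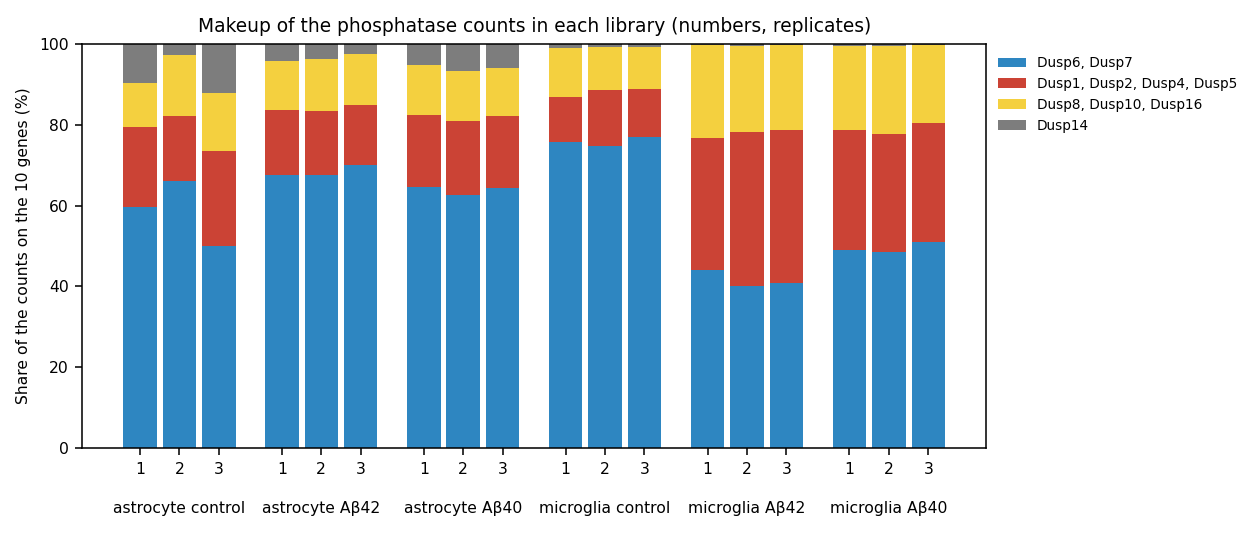
Share of the counts on the 10 phosphatase genes (y axis, percent) taken by each class in every library, with replicates numbered along the x axis. Dusp6 and Dusp7 (blue) fill at least 74.7% of each microglia control bar and at most 50.9% of each fibril-treated microglia bar, and the nuclear members (red) take most of what they leave.

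The other genes of the cascade are described by lists, whose counts are to be read against the shares of all genes that were higher and lower: 16.5% and 20.4% in astrocytes with Aβ42, 14.9% and 18.4% with Aβ40, 27.1% and 26.6% in microglia with Aβ42, and 19.6% and 21.4% with Aβ40. Several of the counts lie near these shares and show nothing particular to the list. Of 9 tested MAP kinases in astrocytes, 3 rose and 1 fell with either fibril: Mapk3 (the kinase ERK1), Mapk12 and Mapk14 (both p38 kinases) rose, by 0.54, 0.92 and 0.45 with Aβ42 and by 0.53, 0.84 and 0.43 with Aβ40 on the log2 scale, and Mapk10, a JNK gene, changed by -0.95 and -0.86. In microglia Mapk13, a p38 gene, rose by 1.63 (adjusted p = 3.67e-06) and 1.02 (adjusted p = 4.88e-04). Mapk11 also rose (0.83) with Aβ42, and Mapk14 fell by 0.68 with Aβ40. Of the upstream kinases, 4 of 19 rose, near the share of all genes, and 1 fell in astrocytes with either fibril. Map3k8, the kinase that activates ERK signalling downstream of Toll-like and TNF receptors, rose by 3.75 (SE 0.30, adjusted p = 3.13e-06) and 3.55 (SE 0.30, adjusted p = 5.21e-06) in astrocytes and by 1.24 and 1.57 in microglia. Map2k1, Map2k4 and Map3k6 were the others that rose in astrocytes (1.12, 1.93 and 1.57 with Aβ42), and Map2k6, which activates p38, fell by 1.39 with Aβ42 and 1.60 with Aβ40. In microglia 4 of 18 rose and 6 fell with Aβ42, and 2 rose and 6 fell with Aβ40, from Map3k6 (2.86 and 2.61) down to Map2k6 (-1.92 with Aβ42) and Map3k1 (-1.53 with Aβ40). Map2k5 and Map3k4 also fell with both.

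Among 10 kinases that MAP kinases activate, Mapkapk2, the kinase through which p38 stabilises cytokine mRNA, rose by 2.41 (SE 0.14, adjusted p = 2.44e-07) and 2.15 (SE 0.14, adjusted p = 6.08e-07) in astrocytes. With it Mapkapk3 rose (0.81 and 0.64), and Mknk1 (-0.70 and -0.78) and Rps6ka5 (-0.92 and -0.95) fell, so that 2 rose and 2 fell with each fibril, near the shares of all genes. In microglia 4 rose and 3 fell with Aβ42 and 2 rose and 5 fell with Aβ40, among them Mapkapk2 (1.09 with Aβ42), Mknk1 (0.61 and 0.77) and Rps6ka5 (-1.15 and -1.002).

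Feedback inhibitors of ERK other than phosphatases include the Sprouty and Spred genes. Of 9 such genes in astrocytes, 0 rose with either fibril by edgeR's test (1 with Aβ42 and 0 with Aβ40 at an unadjusted p under 0.05), and Spry1, a Sprouty inhibitor of receptor signalling, fell by 1.83 (SE 0.22, adjusted p = 7.55e-05) with Aβ42 and by 2.13 (SE 0.22, adjusted p = 2.74e-05) with Aβ40. Spry3 fell with both and Il17rd with Aβ42, which makes 3 and 2 that fell. In microglia 2 rose, near the share of all genes, and 1 fell with each fibril: Spred3 rose by 2.34 and 1.69, Errfi1 by 0.48 with Aβ42 and Il17rd by 1.23 with Aβ40, and Spry1 fell by 0.74 and 0.91. Of 12 genes known as ERK targets, 2 rose in astrocytes with each fibril, Ier3 (2.61 and 2.15) and Fosl1 (1.35 and 0.86), while 4 fell with Aβ42 and 6 with Aβ40, including Egr1 (-0.96 and -1.06) and Egr2 (-0.96 and -1.04). In microglia 6 rose and 5 fell with Aβ42, and 5 rose and 4 fell with Aβ40. Fosl1 (4.89 and 4.66), Ier3 (3.82 and 3.70) and Phlda1 (3.46 and 3.24) rose and Egr2 (-3.13 and -2.90) and Etv5 (-2.55 and -2.37) fell there.

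Of 16 further phosphatases outside the 10 members, 11 were tested in astrocytes, and 0 rose while 4 fell with Aβ42 and 2 with Aβ40 by edgeR's test (0 and 1 were higher at an unadjusted p under 0.05). Ptpn7, a tyrosine phosphatase of ERK and p38 in blood cells, fell by 2.03 with Aβ42 and 2.18 with Aβ40 in astrocytes, from 5.65 ± 1.38 to 1.39 ± 0.135 and 1.23 ± 0.351 scaled CPM. It was at 99.7 ± 8.52 in microglia control, and the microglial markers of the astrocyte libraries fell over the same groups as given above. Ptpn5 fell by 1.43 and 1.77. In microglia 12 were tested, of which 2 rose and 2 fell with Aβ42 (Ptprr 2.26 and Dusp3 -0.76 at the ends) and 0 rose and 2 fell with Aβ40 (Dusp3 -1.01 and Dusp22 -0.54).

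Cytokine and related transcripts are known outputs of these kinases. In astrocytes 7 of 8 tested genes rose and 0 fell with each fibril, from Cxcl2 (8.61 with Aβ42 and 8.0002 with Aβ40) to Tnf (3.53 and 2.83), and Zfp36, whose protein destabilises cytokine mRNA, was the gene that did not pass (0.03 and 0.12). Of all genes 16.5% were higher with Aβ42 and 14.9% with Aβ40. Genes with few counts in astrocyte control, such as Il1b, passed the filter through the treated libraries, so their place in this count is no support. In microglia all 9 tested genes rose with both fibrils, from Il6 (7.75 and 7.94) to Zfp36 (0.85 and 1.31). There 27.1% of all genes were higher with Aβ42 and 19.6% with Aβ40.

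The genes whose log2 CPM followed the members with the widest range most closely over the 18 libraries are given as a description, since the libraries share their cell type and treatment. For Dusp2 they were Gsr, the glutathione reductase gene, LOC685157 and Bcat1, a branched-chain amino acid transaminase gene, each with a Pearson r of 0.98. For Dusp4 they were Ada, the adenosine deaminase gene (r = 0.99), Mthfd2, a mitochondrial folate enzyme gene (0.99), and Slc7a1, a cationic amino acid transporter gene (0.98). For Dusp14 they were Add1, Ctc1 and Pbxip1, each at 0.98. LOC685157 held at most 1 count in any astrocyte library and at most 3 in microglia control, so its r with Dusp2 rests on values near 0 there. Bcat1 shows the shape shared with Dusp2: it was at 166 ± 10.6, 176 ± 11.9 and 134 ± 12.3 scaled CPM in astrocytes without fibrils, with Aβ42 and with Aβ40, and at 184 ± 3.85, 796 ± 49.8 and 635 ± 28.3 in microglia.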

How the data were processed

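Poly(A) RNA libraries from 18 samples were sequenced by the study, and the submitters' processing notes name STAR, Salmon, DESeq2 and the rat build rn5. The deposited values are whole-number read counts per gene symbol, not normalised, and which tool wrote them is not given in the sources used here. Reads listed without a gene or as ambiguous were left out of library sizes (26.0% to 34.2% of counts in astrocytes and 21.7% to 24.5% in microglia). Each cell type was fitted with its 3 groups together in edgeR 4.0.16 (R 4.3.3) with filterByExpr and TMM scaling, which left 11690 genes in astrocytes and 10837 in microglia. The difference of the responses and the comparison of controls came from a fit of all 18 libraries with 11581 genes. The SE is the log2 fold change over the square root of the quasi-likelihood F. Scripts were tested on simulated data. Samples with the same replicate number did not deviate together and were not paired. Alternatives were other scalings, filters and fits, DESeq2 1.42.0, a replicate block, and each library left out. The 10 members, the lists of other genes and the rule for naming them (the ends of each list, genes past the threshold, and the 3 genes most like each of the 3 members with the widest range) were chosen with earlier results of these data known. No transcript lengths were used, so levels are not compared between genes, and the shares and sums over the 10 genes are of counts uncorrected for length. Promoters come from RefSeq on GRCr8 and were not joined to rn5 coordinates. Values of 2 genes of these lists are not reported here.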

Additional observations from a re-analysis of the deposited data

Results flagged for a closer look

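The response to fibrils differed between the cell types, by the test of the difference itself (microglia minus astrocyte log2 fold change, edgeR's quasi-likelihood test in the fit of 18 libraries), for 6 members with Aβ42 and 7 with Aβ40, Dusp2 counted. Of all genes 19.3% had a higher and 17.9% a lower value in microglia with Aβ42, and 16% and 16.5% with Aβ40. With Aβ42 the differences were 1.46 for Dusp1, 4.56 for Dusp2, 1.69 for Dusp5, -1.88 for Dusp6, -1.21 for Dusp7 and 1.76 for Dusp8. With Aβ40 they were 0.83 for Dusp1, 3.59 for Dusp2, 1.24 for Dusp4, 1.53 for Dusp5, -1.56 for Dusp6, -0.76 for Dusp7 and 0.72 for Dusp16. Dusp2 entered that fit only through the microglia, where it is high, and held 1 to 8 counts in the astrocyte libraries, so its values are a description and no support for a difference. The groups of 3 libraries are too small for a search for single outlying libraries by Dixon's test. The microglial markers in the astrocyte libraries (365 to 452 scaled CPM in control and 33.6 to 77.8 with fibrils) moved with the treatment, and their part in these differences was not tested.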

How the results depend on the processing

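Over all members, comparisons and alternatives, 1498 values kept their direction and side of the threshold, 77 fell short of it, 16 passed it and 22 changed sign, and the causes were not tested. The number of calls with either fibril against control stayed within 1.5 times under every alternative, except that 1 of the 5 astrocyte Aβ40 calls reached 2-fold. The counts here include Dusp2, whose tests in microglia and in the fit of 18 libraries are no support. Of the 6 and 7 differences between the responses, 7 became 4 at 2-fold for Aβ40, and 3 to 8 passed with a library left out (3 without astrocyte control replicate 3). The 8 calls between the controls became 4 with 10 counts required in every library and 5 at 2-fold, and 5 to 8 with a library left out (5 without astrocyte control replicate 1 or microglia control replicate 1). The comparison of the fibrils was the least stable. In microglia 4 calls became 2 with the replicate block, 0 with the 2 groups alone, 1 at 2-fold, and 0 to 7 with a library left out. In astrocytes 0 became 1 with DESeq2's Wald test, 2 with the 2 groups alone, and 0 to 2 with a library left out. The replicate block gave 7, 5, 7 and 7 calls in the 4 comparisons with control. Same-numbered samples correlated above 0.1 in 2 of 9 astrocyte and 1 of 9 microglia pairs, so the numbers do not pair them. Scaling by library totals moved the median of all genes by -0.27 (log2) between the controls, where Dusp16 went to -0.11 and Dusp10 to 0.18, and it put Dusp5 at -0.044 in astrocytes with Aβ40.

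Values near 0 changed sign with a library left out. Dusp14 ranged from -0.57 to 0.22 in astrocytes with Aβ42, from -0.085 to 0.71 with Aβ40, from -0.30 to 0.33 between the fibrils in microglia, and from -0.77 to 0.043 in the difference of the Aβ42 responses. Dusp7 in microglia ranged from -0.086 to 0.034 with Aβ42, from -0.091 to 0.099 with Aβ40 and from -0.12 to 0.064 between the fibrils. Dusp5 ranged from -0.069 to 0.078 in astrocytes with Aβ40, Dusp8 from -0.25 to 0.055 between the fibrils in astrocytes, Dusp10 from -0.055 to 0.28 in the difference of the Aβ42 responses, and between the fibrils in microglia Dusp6 ranged from -0.13 to 0.0012 and Dusp16 from -0.40 to 0.0068. Depth limits Dusp2 and Dusp4 in astrocytes and Dusp14 in microglia, where a library could hold 1 to 3 counts.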

Other observations

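Genes of the cascade lists were also tested for a difference of response between the cell types in the fit of 18 libraries, where 19.3% of all genes had a higher and 17.9% a lower value in microglia with Aβ42, and 16% and 16.5% with Aβ40. Among upstream kinases 2 of 19 had a higher and 7 a lower value in microglia than in astrocytes with Aβ42, and 0 and 7 with Aβ40. Map3k8 had the lowest value with both (-2.51, SE 0.30, and -1.996, SE 0.31), and it was also the list's highest gene between the controls, with a log2 difference of 5.04 (SE 0.24) toward microglia. Among ERK targets 5 of 12 were higher and 3 lower with Aβ42, and 5 and 2 with Aβ40, with Fosl1 at 3.53 (SE 0.30) and 3.78 (SE 0.30) and Phlda1 at 3.21 and 3.58 on the higher side, and Egr2 (-2.15 and -1.88) and Etv5 (-2.19 and -1.83) on the lower. Of the ERK feedback inhibitors 2 of 9 were higher with Aβ42 and 5 with Aβ40, and 0 were lower with either; the count with Aβ42 is near the share of all genes. Of the cytokine transcripts 0 of 9 were higher and 2 lower with Aβ42 (Il1b -2.81 and Cxcl2 -2.29), and 3 were higher and 2 lower with Aβ40. Il1b was at 0.682 ± 0.420 scaled CPM in astrocyte control and at 244 ± 24.2 in microglia control (SD, n = 3).

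Between the fibrils in microglia, where 11.3% of all genes were higher and 9.01% lower with Aβ42, the calls depended on the libraries: 20.3% of genes were called in all, 0.905% to 1.37% without Aβ42 replicate 2 or 3 or any Aβ40 library, 53.8% without Aβ42 replicate 1, and 1.02% with the 2 groups alone. With all 9 libraries, the list genes past the threshold that were higher with Aβ42 were Mapk13 among the MAP kinases, Map2k1, Map2k2 and Map3k11 among the upstream kinases, Mapkapk2, Rps6ka4 and Mknk2 among the kinases they activate, Spred3, Ier2 and Dusp22. Those lower with Aβ42 were Map2k6, Map3k2, Spry3 and Il17rd. Of the 9 cytokine transcripts 0 passed the edgeR test there and 2 were lower at an unadjusted p under 0.05. The lowest value of the list was that of Zfp36 (-0.46, adjusted p = 0.0849) and the highest that of Cxcl2 (0.18, adjusted p = 0.330).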
